A study of Homo sapiens with 12 samples.

Results

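The comparison set HepG2 cells given FAC against HepG2 cells given 8HQ, each agent without the other. HepG2 is an established line from a human liver tumour that still secretes plasma proteins, and the labels give liver as its tissue. RNA of 3 libraries per group was sequenced after 6 h, so 6 of the 12 libraries of the study enter the comparison itself. The other 6 came from cells given DMSO, the solvent control, and from cells given both agents (8HQ_FAC). All groups carry the same label of 10 µM, DMSO included, so it is not clear to which agent that concentration belongs. Neither abbreviation is spelled out there. Iron studies commonly write FAC for ferric ammonium citrate, a soluble iron salt, and 8HQ for 8-hydroxyquinoline, a metal-binding compound that can take iron through membranes. By its title the series is about labile iron in the cell and about hepcidin, a hormone from the liver that closes the route of iron export, and setting the single agents side by side asks how cells given the iron salt differ from cells given the carrier. A gene was compared where 3 or more of the 12 libraries reached 1 FPKM, which held for 10823 of the 20030 genes listed.

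Iron is taken up as transferrin by the transferrin receptor, stored in ferritin and exported by ferroportin. When iron is scarce, iron regulatory proteins bind a hairpin called the iron-responsive element: in the 3′ UTR of the transferrin receptor mRNA they keep the mRNA stable, and in the 5′ UTR of the ferritin mRNAs they block translation. Iron is also a cofactor of the prolyl hydroxylases that mark hypoxia-inducible factors (HIF) for degradation, and the liver adjusts hepcidin transcription to iron through bone morphogenetic proteins (BMP) and SMAD proteins.

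FPKM scale fragments or reads by gene length and by the mapped total of the library, so levels of different genes may be compared. FPKM summed to between 345203 and 346915 in the FAC libraries and between 335641 and 341403 in the 8HQ libraries. Sequencing depth relative to DMSO replicate 1, read from the steps of the lowest values, was 0.919 to 0.981 in FAC and 0.931 to 0.991 in 8HQ. The libraries carried the markers of the line: all 10 HepG2 and hepatocyte markers were above 0 in every library, and ALB, the gene of serum albumin, averaged 4941 FPKM in FAC and 4313 FPKM in 8HQ. Whether libraries of 1 group stem from separate cultures is not in the labels, so p-values measure the spread between these libraries only, and that spread may be technical.

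The FAC libraries also stood apart in which low transcripts were listed at 0. A total of 142 genes were listed at 0 in all 3 FAC libraries and above 0 in all 3 8HQ libraries, against 28 genes the other way round. The same count was 121 against 25 for FAC and DMSO, and 22 genes were at 0 in DMSO and above 0 in 8HQ against 26 the other way. HBB, the beta chain of adult haemoglobin, was listed at 0 in every FAC library and had 35.2, 6.97 and 1.52 FPKM in 8HQ and 0.421, 1.41 and 9.70 FPKM in DMSO. Of 6 red cell markers only HBA1 was above 0 in each FAC library, against 3 to 5 in 8HQ, and their summed level ran from 0.0949 to 0.531 FPKM in FAC and from 2.07 to 41.4 FPKM in 8HQ. Of 13 leukocyte and Kupffer cell markers 4 to 8 were above 0 in FAC libraries and all 13 in each 8HQ library. Their summed level, nearly all of it LYZ (lysozyme) and CD74, was 1272 to 1349 FPKM in FAC and 1143 to 1170 FPKM in 8HQ. Of the 6 leukocyte markers tested, LYZ (1186 FPKM in FAC and 1033 FPKM in 8HQ) and CD74 (90.6 FPKM in FAC and 86.0 FPKM in 8HQ) were called higher in FAC, and CD68 lower. The CD74 call had an adjusted p of 0.0447 in limma, and 0.238 without FAC replicate 1. HLA-DRA and S100A9 were lower in FAC too. They passed the filter of 1 FPKM only through 8HQ and DMSO libraries, so their direction is no test result. HLA-DRA, an antigen-presenting molecule of leukocytes, was listed at 0 in FAC and had 1.02, 1.87 and 0.874 FPKM in 8HQ. The neutrophil and monocyte protein S100A9 had 0.188, 0 and 0 FPKM in FAC, against 2.06, 2.31 and 0.678 FPKM in 8HQ. CYP2E1, an ethanol-oxidizing P450 of mature hepatocytes picked after its values were seen, had 0, 0.0322 and 0.103 FPKM in FAC and 2.58, 1.76 and 2.92 FPKM in 8HQ. Hepatocyte genes as a group did not share that direction: of the 10 HepG2 and hepatocyte markers 7 were called higher in FAC, ALB among them, and 1, APOA1, lower. HBB and HLA-DRA were listed at 0 in all 3 8HQ_FAC libraries too, whereas the summed red cell markers there, 0.901 to 3.31 FPKM and mostly HBA1, lay above FAC and overlapped 8HQ. Since each agent was given in its own set of libraries, the agent and a different handling of its cultures or RNA cannot be told apart. The labels name no cells other than HepG2, and where the red cell and leukocyte transcripts came from was not tested.

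**Figure D1:**
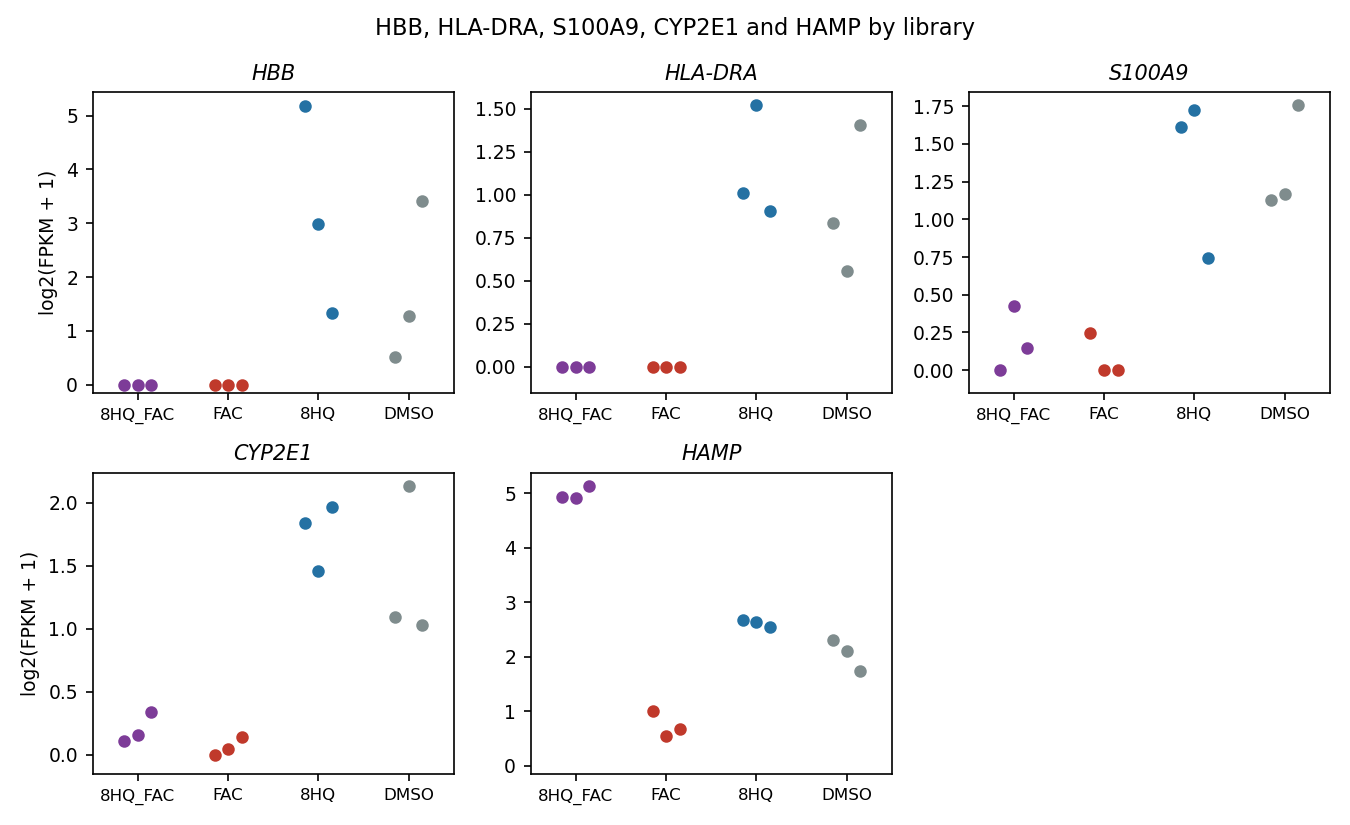
Levels of HBB, HLA-DRA, S100A9, CYP2E1 and HAMP in each of 12 libraries, as log2(FPKM + 1) on a scale of its own per gene, with 1 point per library in the 8HQ_FAC, FAC, 8HQ and DMSO groups. HBB and HLA-DRA sit at 0 in all FAC and 8HQ_FAC libraries and above 0 in all 8HQ and DMSO libraries, while HAMP is lowest in FAC and highest in 8HQ_FAC.

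A majority of the tested genes differed between the agents, by small amounts. Of 10823 genes 6153 (56.9%) passed a Benjamini-Hochberg adjusted p under 0.05 in limma, 2670 (24.7%) higher in FAC and 3483 (32.2%) lower. The median absolute difference of these genes was 0.26 on the scale of log2(FPKM + 1), a scale that understates changes of genes near or below 1 FPKM. On this scale only 39 genes (0.36%) were at least 2-fold higher in FAC and 64 (0.591%) at least 2-fold lower. A 4-fold change on it was passed upward by 2 genes, CA9 and PFKFB4, and downward by 4, HBB, EGR1, CYP24A1 and TFRC. HBB passed the filter only through 8HQ and DMSO libraries, so its direction is no test result. Ratios of mean FPKM passed 4-fold for further genes, such as MT1A (5.65 times the 8HQ mean), HAMP (0.133 times) and CYP1A1 (0.2497 times). Tested against a fold of 1.5 rather than against 0, 183 genes were called, 68 higher and 115 lower. The direction of the many small differences depends on the scaling: 43.4% of the called genes were higher in FAC as deposited, 51.4% after quantile normalization, 36.8% with equal sums, 57.3% with equal medians and 51.5% with a trend over transcript length removed. These scalings moved the median of all genes, -0.03 as deposited, to between -0.06 and 0.03. Among the shortest transcripts 30.4% of genes were called higher and 23.3% lower, among the longest 20.3% and 35.9%. The groups of 3 did not overlap for 63.5% of tested genes. Counts of list members given below are to be read beside the 24.7% higher and 32.2% lower of all tested genes. These counts can include members that reached 1 FPKM only in the groups where they were higher. For such members the direction is no test result.

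**Figure D2:**
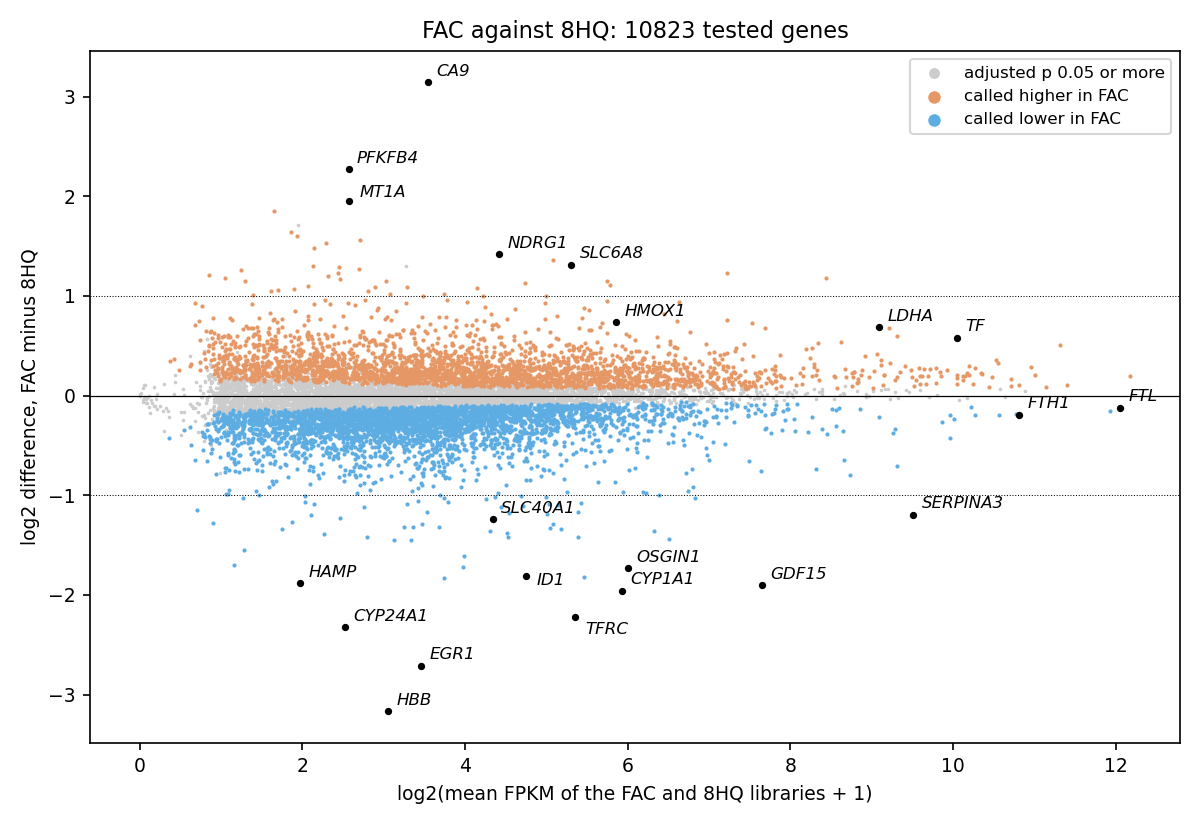
Difference between FAC and 8HQ on the log2(FPKM + 1) scale (vertical axis, FAC minus 8HQ) against the mean level of the 6 libraries (horizontal axis), with 1 point per tested gene, orange for 2670 genes called higher in FAC, blue for 3483 called lower and grey for the rest. Dotted lines mark a 2-fold difference; CA9 stands highest at 3.14, and EGR1, CYP24A1, TFRC and CYP1A1 are among the lowest.

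Set against DMSO, the agents differed in how many genes they moved. FAC against DMSO gave 5848 genes (54%), 2689 higher (24.8%) and 3159 lower (29.2%), and 8HQ against DMSO gave 531 (4.91%), 270 higher (2.49%) and 261 lower (2.41%). Both comparisons share the 3 DMSO libraries, and the FAC and 8HQ difference of a gene is their difference by construction. They are therefore given below only as values beside the direct comparison. On the scale of log2(FPKM + 1), just 3 genes (0.0277%) passed 2-fold in 8HQ against DMSO. They were OSGIN1, SRXN1 and AKR1B10, all 3 higher and all 3 known targets of the antioxidant factor NRF2. A ratio of mean FPKM can pass 2-fold where this scale does not. GCLM, at 0.996 on the scale, had 2.15 times the DMSO mean in 8HQ.

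Hepcidin mRNA was lower after FAC than after 8HQ, and so were ID1, ID2, ID3, SMAD7 and BAMBI, known targets of BMP-SMAD signalling, while the target SMAD6 was not called. HAMP, which encodes hepcidin, had 1.02, 0.456 and 0.587 FPKM in FAC, 5.40, 5.25 and 4.85 FPKM in 8HQ and 3.95, 3.29 and 2.34 FPKM in DMSO. The groups did not overlap, with 8HQ highest and FAC lowest. The difference between FAC and 8HQ was -1.88 ± 0.13 (log2, SE; adjusted p = 1.64e-08), and the mean level in FAC was 0.133 times that in 8HQ. HAMP lay at 0.58 in 8HQ and at -1.31 in FAC relative to DMSO, both past the threshold. HBB, HLA-DRA, S100A9 and CYP2E1, given above, were lower in FAC as well, and LYZ and CD74 were higher; their part in the HAMP difference was not tested. In 8HQ_FAC, where HBB is also listed at 0, HAMP had 29.7, 29.05 and 34.4 FPKM.

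ID1, an inhibitor of helix-loop-helix factors and a direct SMAD target, had 10.7, 11.1 and 10.8 FPKM in FAC, 40.2, 40.8 and 41.3 FPKM in 8HQ and 42.4, 43.6 and 41.1 FPKM in DMSO. FAC was the low group, and 8HQ and DMSO differed by -0.05 (adjusted p = 0.432). The related ID3 had 6.71, 7.11 and 5.29 FPKM in FAC and 21.9, 23.9 and 23.5 FPKM in 8HQ, a difference of -1.72 ± 0.07 (log2, SE). SMAD7, the inhibitory SMAD of the feedback loop, had 3.15, 3.46 and 3.15 FPKM in FAC and 5.48, 5.62 and 5.54 FPKM in 8HQ, and the pseudoreceptor BAMBI averaged 10.2 ± 0.104 FPKM in FAC and 19.2 ± 1.05 FPKM in 8HQ. Of the 18 tested genes of the BMP-SMAD list 2 were called higher and 10 lower, with a median of -0.18 beside -0.03 for all genes. The 2 higher ones were the ligand BMP4 (70.4 FPKM in FAC and 49.5 FPKM in 8HQ) and TMPRSS6, the protease that cleaves the hepcidin co-receptor (2.22 FPKM in FAC and 1.82 FPKM in 8HQ; adjusted p = 0.0195, and 0.0844 without 8HQ replicate 3). The receptor-activated SMAD1 and the common SMAD4 were called lower at -0.26 and -0.23, whereas SMAD5, SMAD6, SMAD9, BMPR1A, BMPR2 and ACVR2B were not called. Several members were below the level tested, among them BMP2, BMP6, HJV and ATOH8.

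**Figure D3:**
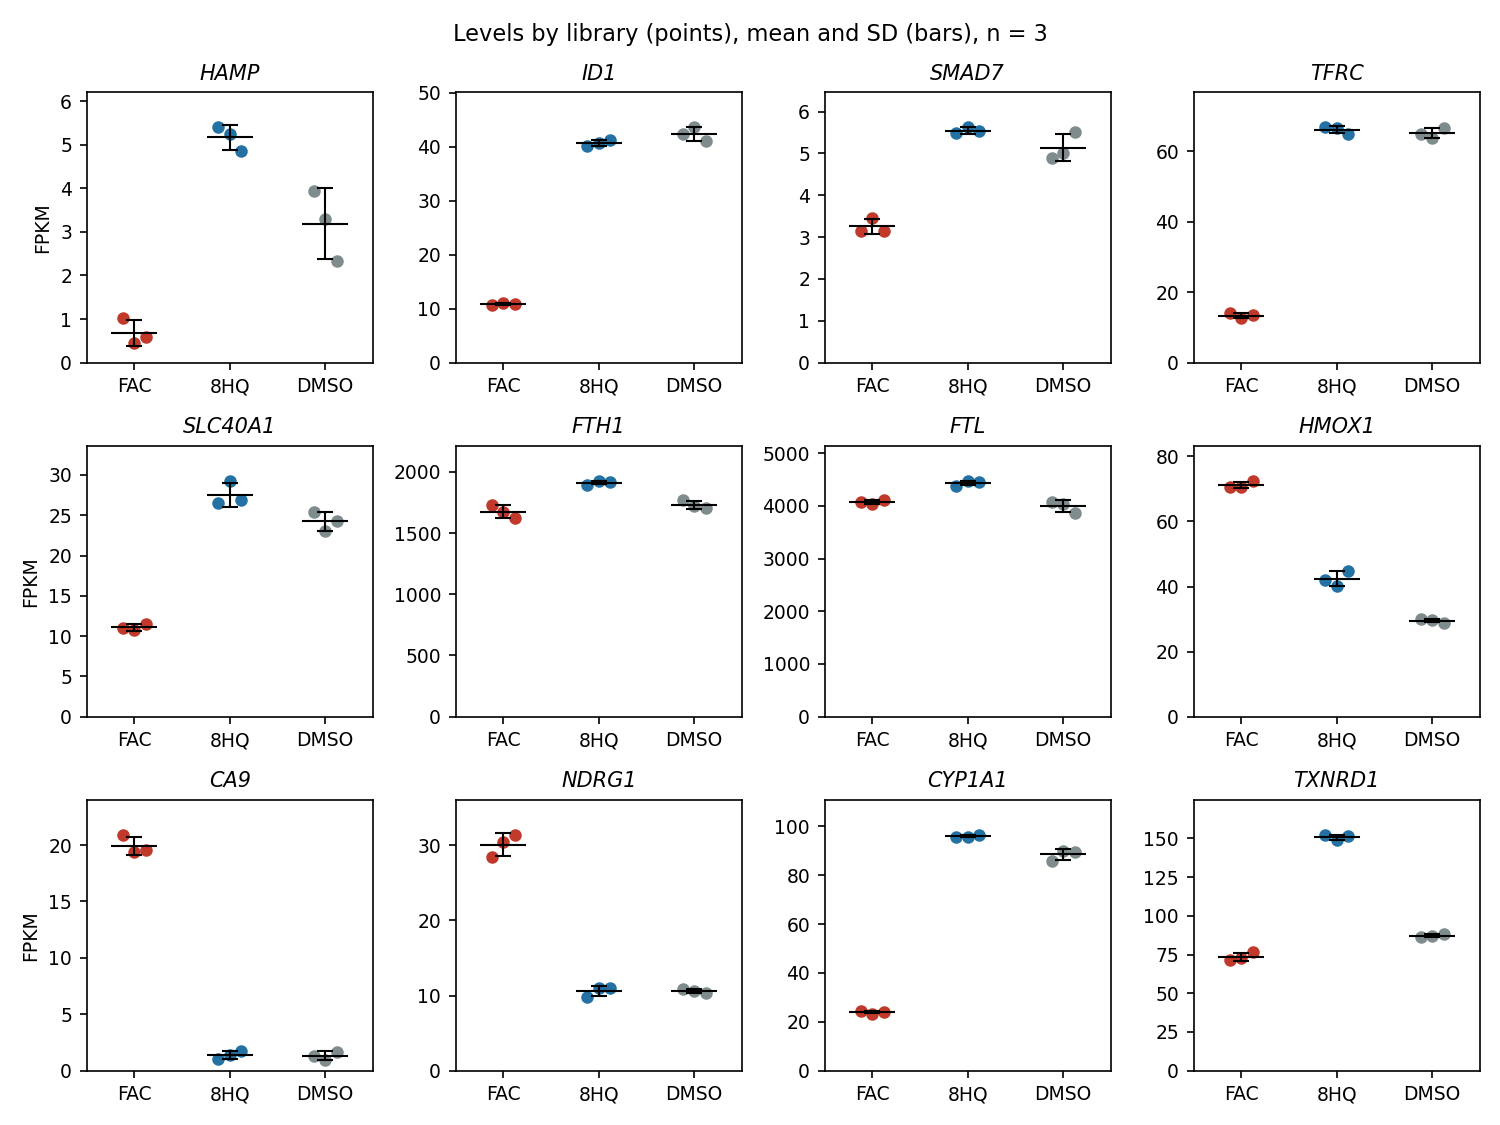
FPKM of 12 genes of iron handling, BMP-SMAD signalling and responses to metals or low oxygen in each library of FAC, 8HQ and DMSO (points), with the mean and SD of 3 libraries (bars) and vertical axes starting at 0. FAC is the low group for HAMP, ID1, SMAD7, TFRC, SLC40A1 and CYP1A1, FAC is the high group for HMOX1, CA9 and NDRG1, and 8HQ is the high group for FTH1, FTL and TXNRD1.

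Of 9 tested mRNAs with a known iron-responsive element none was higher in FAC, 0 also at an unadjusted limma p under 0.05, and 8 were lower, with a median of -0.41. CDC14A, 1 of the 8, passed the filter of 1 FPKM only through 8HQ and DMSO libraries, so its direction is no test result. The sequences are shown because the place of the hairpin decides how it acts. A search of GENCODE 29 transcripts (GRCh38) of 8 of these genes for a 5-pair stem below the loop CAGTGN (N any base but G), with the unpaired C on its 5′ side, found 8 hairpins in 5 of them. In the 3′ UTR of TFRC, the transferrin receptor, the search found 4, at chr3:196050980-196051006, chr3:196050576-196050602, chr3:196050511-196050537 and chr3:196050464-196050490, all on the minus strand. They are lettered A to D in that order for this report only, and these letters are not the established names of the elements. Elements that depart from the pattern are missed, so 4 is not a full count for this gene. The 5′ UTRs of FTH1 (chr11:61967575-61967601, minus) and FTL (chr19:48965336-48965362, plus), the ferritin subunits, hold 1 each, as does that of SLC40A1 (chr2:189580662-189580688, minus), ferroportin. The phosphatase gene CDC14A holds 1 in its 3′ UTR (chr1:100518584-100518610, plus). Capitals mark the loop, T stands for U, and the 27 bases run 5′ to 3′.
TFRC A: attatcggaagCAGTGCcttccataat
TFRC B: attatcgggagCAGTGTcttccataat
TFRC C: tgtatcggagaCAGTGAtctccatatg
TFRC D: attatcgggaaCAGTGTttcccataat
FTH1: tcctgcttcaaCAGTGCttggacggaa
FTL: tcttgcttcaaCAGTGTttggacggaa
SLC40A1: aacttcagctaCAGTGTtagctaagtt
CDC14A: atttacatgtaCAGTGTtacattatat

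TFRC had 14.1, 12.6 and 13.4 FPKM in FAC, 66.8, 66.6 and 65.0 FPKM in 8HQ and 65.0, 63.8 and 66.6 FPKM in DMSO. FAC libraries were far below the others, and 8HQ and DMSO overlapped. The difference between FAC and 8HQ was -2.22 ± 0.04 (log2, SE; adjusted p = 3.19e-15), or 0.202 times the 8HQ level. CDC14A, with a 3′ hairpin as well, had 0.776, 0.768 and 0.783 FPKM in FAC and 1.26, 1.44 and 1.37 FPKM in 8HQ. That is a difference of -0.41 at levels near 1 FPKM, with a direction that the filter had set. Of the 3 mRNAs shown with a 5′ hairpin SLC40A1 differed most, with 11.1, 10.7 and 11.5 FPKM in FAC, 26.5, 29.2 and 26.8 FPKM in 8HQ and 25.5, 23.1 and 24.3 FPKM in DMSO, a difference of -1.24 ± 0.05 (adjusted p = 3.71e-11). Both ferritin mRNAs were slightly lower in FAC than in 8HQ. FTH1 had 1730.4, 1669 and 1624 FPKM in FAC and 1896, 1922 and 1919 FPKM in 8HQ, and FTL had 4083, 4033 and 4115 FPKM in FAC and 4383, 4466 and 4453 FPKM in 8HQ. Against DMSO, FTH1 and FTL were higher in 8HQ, by 0.14 and 0.15, and FAC was at -0.05 and 0.03, which did not pass. The iron importer SLC11A2 (-0.57) and the hypoxia factor EPAS1 (-0.77) were called lower too, and the kinase gene CDC42BPA (-0.11, adjusted p = 0.192) was not called; this search found no hairpin of the pattern in these 3.

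Among 24 tested genes of iron uptake, storage, export and sensing, which include several of the above, 9 were higher in FAC and 9 lower. TF, serum transferrin, had 1274, 1264 and 1266 FPKM in FAC and 843, 826 and 871 FPKM in 8HQ (0.58 ± 0.02). LCN2, which binds the iron carriers of bacteria, had 35.3, 35.9 and 35.0 FPKM in FAC and 15.4, 14.8 and 16.9 FPKM in 8HQ, and ceruloplasmin, the ferroxidase encoded by CP, averaged 80.4 ± 5.27 FPKM in FAC and 54.2 ± 0.441 FPKM in 8HQ. Both groups of 3 were separate for each of these genes, and DMSO means were closer to 8HQ. SLC39A14, a carrier that imports iron not bound to transferrin, was higher in FAC at 0.37. The mitochondrial iron importer SLC25A28 had 3.64, 3.19 and 3.06 FPKM in FAC and 7.45, 7.47 and 7.46 FPKM in 8HQ, a difference of -0.98, while its relative SLC25A37 was higher by 0.19. The iron sensors moved little: ACO1 was higher by 0.16 (adjusted p = 0.0142, and 0.077 without 8HQ replicate 3), and IREB2 (0.08) and FBXL5 (-0.02) were not called.

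Of 19 genes of heme synthesis and breakdown 6 were higher in FAC and 7 lower. Called genes were 68.4% of them, against 56.9% of all tested genes. HMOX1, the inducible heme oxygenase, had 70.6, 70.7 and 72.3 FPKM in FAC, 42.0, 40.3 and 44.9 FPKM in 8HQ and 30.0, 29.7 and 28.9 FPKM in DMSO. All 3 groups were separate, and FAC exceeded 8HQ by 0.74 ± 0.05 (log2, SE; adjusted p = 1.08e-08). BACH1, the heme-sensing repressor of HMOX1, was lower in FAC at -0.38, with 7.31 FPKM in FAC and 9.82 FPKM in 8HQ. The porphyrin transporter ABCB6 (-0.36), the first enzyme of the pathway ALAS1 (-0.24) and the last, FECH (-0.22), were lower in FAC, and CPOX (0.32) and ALAD (0.24), which act between them, were higher. Iron-sulfur cluster genes gave 12 higher and 6 lower of 26, led by the chaperone HSCB at 0.37 and the scaffold partner ISCA2 at 0.32. Of 16 regulators of ferroptosis, an iron-dependent form of cell death, 5 were higher and 10 lower. The 5 higher ones were NCOA4, GPX4, VDAC3, DHODH and ACSL4. The list includes the cystine importer SLC7A11, with 4.29, 4.53 and 4.48 FPKM in FAC and 14.3, 13.9 and 13.2 FPKM in 8HQ (-1.45 ± 0.07), the lipid peroxide reductase GPX4 at 0.14, the quinone reductase AIFM2 at -0.51 and the acyl-CoA synthetase ACSL4 at 0.49.

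HIF target genes were the list with the most positive median. Of 39 tested members 29 were higher in FAC and 4 lower, with a median of 0.56. The higher ones include ANGPTL4, which passed the filter only through FAC libraries, so its direction is no test result. Against DMSO the counts were 29 and 6 for FAC and 3 (GPI, ALDOA and STC2) and 4 (SLC2A1, SLC2A3, HK2 and INSIG2) for 8HQ. CA9, a carbonic anhydrase of hypoxic cells, had 20.9, 19.4 and 19.5 FPKM in FAC, 1.06, 1.37 and 1.73 FPKM in 8HQ and 1.32, 0.922 and 1.697 FPKM in DMSO. Its difference of 3.14 ± 0.11 (log2, SE; adjusted p = 1.13e-11) was the greatest of all tested genes with a positive sign, and the FAC mean was 14.4 times the 8HQ mean. PFKFB4, which sets the level of the glycolytic activator fructose 2,6-bisphosphate, had 8.34, 8.96 and 9.15 FPKM in FAC and 0.906, 1.08 and 1.13 FPKM in 8HQ. NDRG1, a stress protein raised by hypoxia and by iron depletion, had 28.4, 30.5 and 31.3 FPKM in FAC and 9.87, 10.98 and 10.9 FPKM in 8HQ. EGLN3, a HIF prolyl hydroxylase, averaged 2.34 ± 0.0773 FPKM in FAC and 0.398 ± 0.0396 FPKM in 8HQ, and the sister enzyme EGLN1 11.4 ± 0.170 FPKM in FAC and 9.35 ± 0.208 FPKM in 8HQ. In each of these, FAC stood above both 8HQ and DMSO, and 8HQ and DMSO overlapped.

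The promoter of CA9 is shown for its hypoxia-response core close to the transcript start; it was chosen after its values were seen. It spans 250 bases before to 50 after the start in RefSeq (GRCh38.p14, chr9:35673678-35673977, plus), and capitals mark the single match to ACGTG on either strand, which begins 18 bases before the start. This core was present in 57.6% of the promoters of 33 HIF targets with an entry, and in 27.4% of the promoters of all 8950 tested genes with one.
CA9: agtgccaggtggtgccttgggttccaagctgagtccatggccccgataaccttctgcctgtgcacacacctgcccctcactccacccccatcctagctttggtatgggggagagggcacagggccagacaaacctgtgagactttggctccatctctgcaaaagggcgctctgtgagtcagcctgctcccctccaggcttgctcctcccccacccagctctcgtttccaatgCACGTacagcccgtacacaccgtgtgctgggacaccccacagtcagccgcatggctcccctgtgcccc

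HIF targets that carry glucose metabolism and mitophagy were higher as well. The glucose carrier SLC2A3 had 69.6, 76.3 and 72.9 FPKM in FAC and 32.7, 32.9 and 31.3 FPKM in 8HQ, PDK1, which closes the entry of pyruvate to mitochondria, averaged 9.04 FPKM in FAC and 3.75 FPKM in 8HQ, and the mitophagy receptors BNIP3 and BNIP3L rose by 0.82 and 1.02. Of 17 glycolytic enzymes 14 were higher and 3 lower, with a median of 0.35. LDHA, lactate dehydrogenase, had 661, 684 and 672 FPKM in FAC and 419.8, 415 and 416 FPKM in 8HQ, and PGK1 had 227, 231 and 229 FPKM in FAC and 139, 134 and 141 FPKM in 8HQ. PFKP (-0.33) and ENO3 (-0.15) were among the lower enzymes. Not all HIF targets followed. SLC2A1, the main glucose carrier of many tumours, was lower, with 99.9, 101 and 96.0 FPKM in FAC and 156, 154 and 155 FPKM in 8HQ, and VLDLR and STC2 were lower too. VEGFA (-0.05, interval -0.13 to 0.03) and ADM (0.01, interval -0.17 to 0.19) were not called. Of 36 dioxygenases that use iron and 2-oxoglutarate 10 were higher and 13 lower. Their called share of 63.9% was near the 56.9% of all tested genes. Collagen hydroxylases such as P4HA1 (0.93) and PLOD2 (0.95) were among the higher, and histone demethylases such as KDM6B (-0.52) and KDM6A (-0.50) among the lower.

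NRF2 targets separated the agents in another way, since here 8HQ stood away from DMSO. NRF2 is the factor that turns on glutathione and thioredoxin genes when electrophiles or oxidants inactivate its partner KEAP1. Of 36 tested targets 6 were higher in FAC than in 8HQ and 24 lower, with a median of -0.28. Relative to DMSO, 8HQ had 28 of them higher and 1, NFE2L2, lower (median 0.27), and FAC 14 higher and 13 lower (median 0.01). OSGIN1, an oxidative stress growth inhibitor, had 29.6, 27.3 and 29.3 FPKM in FAC, 99.3, 97.3 and 96.6 FPKM in 8HQ and 37.2, 38.9 and 37.5 FPKM in DMSO. 8HQ was the high group and FAC the low one. SRXN1, which repairs peroxiredoxins, had 46.5, 47.6 and 49.8 FPKM in FAC, 132, 129.7 and 134 FPKM in 8HQ and 61.4, 65.0 and 62.8 FPKM in DMSO. TXNRD1, thioredoxin reductase, had 71.5, 72.6 and 76.7 FPKM in FAC, 152, 149 and 151 FPKM in 8HQ and 86.4, 86.7 and 88.4 FPKM in DMSO. Its difference between FAC and 8HQ was -1.03 ± 0.03 (log2, SE; adjusted p = 7.88e-12), and FAC lay -0.24 from DMSO.

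The 2 subunits of glutamate-cysteine ligase, the enzyme that starts glutathione synthesis, were lower in FAC than in 8HQ. GCLC had 40.2, 40.3 and 40.8 FPKM in FAC and 83.0, 77.1 and 80.6 FPKM in 8HQ. GCLM had 8.55, 8.35 and 8.33 FPKM in FAC, 14.3, 13.9 and 13.8 FPKM in 8HQ and 6.46, 6.37 and 6.73 FPKM in DMSO, so that it was raised in both agents and more so in 8HQ. AKR1B10, an aldehyde reductase, averaged 34.1 ± 0.523 FPKM in FAC, 63.0 ± 2.63 FPKM in 8HQ and 29.9 ± 0.514 FPKM in DMSO. NQO1, the quinone reductase, had 255, 256 and 261 FPKM in FAC and 334, 332 and 333 FPKM in 8HQ (-0.37 ± 0.02). A pair of lower members moved mainly on the FAC side instead. NFE2L2, the gene of NRF2 itself, had 48.5, 46.95 and 49.3 FPKM in FAC, 95.4, 97.0 and 94.1 FPKM in 8HQ and 113, 108 and 107 FPKM in DMSO, and its partner MAFG averaged 13.3 FPKM in FAC, 31.2 FPKM in 8HQ and 26.6 FPKM in DMSO. HMOX1, SLC6A6, PRDX1, CBR1 and TKT were among the members higher in FAC. Of 18 genes of glutathione transferases and synthesis 5 were higher (GSTM3, GSTA2, MGST2, GSTA1 and GSTA4, with GSTA2 at an adjusted limma p of 0.0506 when low genes were not filtered out) and 3, GCLC, GCLM and GSTK1, lower. The family AKR1C has near-identical copies, so the split of reads between AKR1C1, AKR1C2 and AKR1C3 is uncertain.

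**Figure D4:**
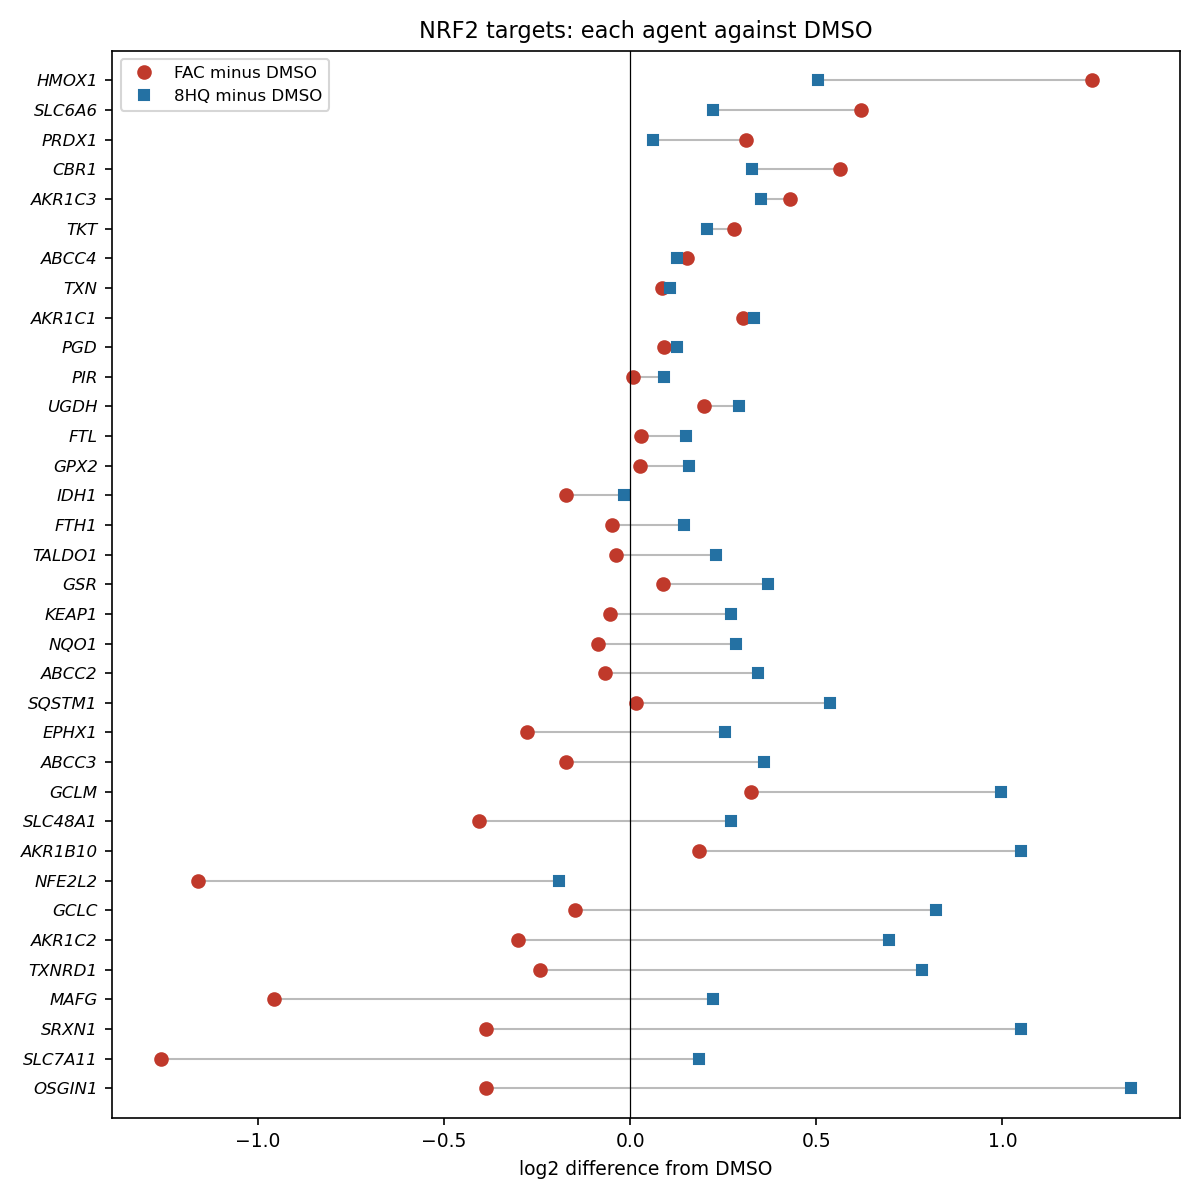
Difference from DMSO on the log2(FPKM + 1) scale for 35 of 36 tested NRF2 targets, with FAC as circles and 8HQ as squares, ordered by the difference between FAC and 8HQ. In 8HQ 28 of 36 members were called higher than DMSO, and the distance between the points is greatest for OSGIN1 (-1.73) at the bottom.

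Promoters of TXNRD1 (chr12:104215529-104215828, plus) and GCLM (chr1:93909381-93909680, minus), from the same RefSeq table and chosen after their values were seen, are shown for the antioxidant response core TGACNNNGC, in capitals. Matches on either strand begin 99 and 8 bases before the start of TXNRD1 and 34 bases before that of GCLM. The core was found in 25.9% of 27 NRF2 target promoters and in 15.4% of all 8950.
TXNRD1: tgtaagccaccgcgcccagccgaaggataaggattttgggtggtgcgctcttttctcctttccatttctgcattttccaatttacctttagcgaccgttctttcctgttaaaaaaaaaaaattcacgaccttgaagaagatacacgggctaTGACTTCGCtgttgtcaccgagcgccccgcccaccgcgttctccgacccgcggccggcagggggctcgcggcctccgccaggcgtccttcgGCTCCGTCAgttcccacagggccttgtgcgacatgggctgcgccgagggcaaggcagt
GCLM: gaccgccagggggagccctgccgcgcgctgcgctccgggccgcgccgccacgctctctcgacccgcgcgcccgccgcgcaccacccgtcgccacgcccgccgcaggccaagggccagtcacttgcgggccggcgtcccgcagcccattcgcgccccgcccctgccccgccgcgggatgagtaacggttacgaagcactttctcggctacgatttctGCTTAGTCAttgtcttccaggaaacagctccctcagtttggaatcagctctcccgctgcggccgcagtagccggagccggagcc

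All 4 tested targets of the aryl hydrocarbon receptor (AHR), a sensor of planar aromatic compounds, were lower in FAC, and 2 of them, NQO1 and NFE2L2, are NRF2 list members too. CYP1A1, the classical AHR target that oxidizes aromatic hydrocarbons, had 24.3, 23.4 and 24.2 FPKM in FAC, 95.7, 95.7 and 96.3 FPKM in 8HQ and 85.8, 90.1 and 89.7 FPKM in DMSO. FAC was 0.250 times 8HQ, a difference of -1.96 ± 0.04 (log2, SE; adjusted p = 8.4e-15), while 8HQ lay 0.11 from DMSO (adjusted p = 0.0801). TIPARP, which limits AHR activity, averaged 4.98 ± 0.395 FPKM in FAC and 6.01 ± 0.249 FPKM in 8HQ. CYP1A2, CYP1B1, AHRR, ALDH3A1, UGT1A6 and LRAT, the rest of the list, were below the level tested. The CYP1A1 promoter (chr15:74725479-74725778, minus) is shown with the AHR core GCGTG in capitals, whose match begins 57 bases before the start; this short core was in 51.6% of all 8950 promoters.
CYP1A1: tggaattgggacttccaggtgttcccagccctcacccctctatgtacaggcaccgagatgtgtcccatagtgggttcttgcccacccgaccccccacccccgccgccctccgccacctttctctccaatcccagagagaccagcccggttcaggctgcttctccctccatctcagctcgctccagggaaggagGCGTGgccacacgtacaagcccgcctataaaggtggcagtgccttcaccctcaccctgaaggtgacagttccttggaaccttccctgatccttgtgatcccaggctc

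Metallothioneins, small proteins that hold zinc and copper, moved in both directions. Of 11 tested genes of the metallothionein and zinc response list 2, MT1A and SLC39A10, were higher in FAC and 6 lower. MT2A had 71.7, 74.6 and 68.9 FPKM in FAC and 129, 160.1 and 132 FPKM in 8HQ, MT1X had 14.5, 14.1 and 11.5 FPKM in FAC and 18.9, 23.6 and 25.3 FPKM in 8HQ, and MT1E, MT1F and MT1G were also lower. MT1A was higher, with 8.50, 8.40 and 8.42 FPKM in FAC, 2.15, 1.34 and 0.989 FPKM in 8HQ and 1.998, 1.95 and 1.73 FPKM in DMSO. These genes are near-identical copies on chromosome 16, and how the authors' counting split shared reads is not given in the sources used here. SLC30A1, the zinc exporter that zinc itself raises, had 12.8, 12.3 and 13.1 FPKM in FAC, 29.6, 28.2 and 28.3 FPKM in 8HQ and 23.5, 24.6 and 23.1 FPKM in DMSO, a difference between the agents of -1.11 ± 0.05. The zinc importer SLC39A10 had 5.57, 6.16 and 6.01 FPKM in FAC and 2.14, 2.03 and 1.88 FPKM in 8HQ (1.20 ± 0.06). The exporter was lower and the importer higher in FAC than in either other group, and in 8HQ both stood on the other side of DMSO, by 0.26 and -0.21. Of 18 zinc transporters 7 were higher and 2, SLC30A1 and SLC30A3, lower. Of 19 copper genes 7 were higher, led by CP, and 4 lower, namely MT2A, CCS, COX19 and ATP7B. The called share of copper genes, 57.9%, was near the 56.9% of all tested genes.

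Stress programmes other than heat shock were mostly lower in FAC. Of 34 targets of ATF4, the factor of the integrated stress response, 30 were lower and 3 higher, with a median of -0.47; against DMSO the counts were 29 lower in FAC and 3 lower in 8HQ (PSAT1, PSPH and SLC38A2). GDF15, a stress hormone, had 84.3, 82.5 and 84.2 FPKM in FAC, 309, 317 and 319 FPKM in 8HQ and 274, 286 and 279 FPKM in DMSO. ASNS, asparagine synthetase, had 11.8, 11.5 and 11.3 FPKM in FAC and 32.5, 31.7 and 33.4 FPKM in 8HQ, and PPP1R15A, which restarts translation, had 9.48, 10.3 and 10.6 FPKM in FAC and 28.1, 26.2 and 28.3 FPKM in 8HQ. FAC was the low group for all 3 of these genes, and DMSO means were closer to 8HQ. ATF4 itself averaged 39.8 ± 0.302 FPKM in FAC and 54.7 ± 0.247 FPKM in 8HQ. Of 13 genes of mitochondrial stress and one-carbon metabolism 4 were higher (CLPX, PYCR1, HSPE1 and HSPD1) and 7 lower, with MTHFD2, a mitochondrial folate enzyme, at 49.4 FPKM in FAC and 98.5 FPKM in 8HQ. The ATF4 targets called higher were DDIT4, also a HIF target (0.39), PSPH (0.17) and PYCR1 (0.15).

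Unfolded protein response genes gave 5 higher (CANX, XBP1, MANF, SEL1L and SEC61B) and 13 lower of 23, with the sensor kinase ERN1 at -0.61 and the chaperone HSPA5 at 0.04 (adjusted p = 0.289). Most heat shock genes were higher: 15 of 21 were called higher and 2, DNAJB4 and HSF1, lower, with a median of 0.18. HSPA8, the constitutive HSP70, averaged 612 ± 13.3 FPKM in FAC and 459 ± 12.4 FPKM in 8HQ. The inducible copies HSPA1A and HSPA1B averaged 24.2 and 39.1 FPKM in FAC, against 14.4 and 24.7 FPKM in 8HQ, though reads of this near-identical pair are hard to assign. Of 25 p53 targets 3 were higher and 20 lower, with a median of -0.32. The death gene BBC3 had 7.87, 7.82 and 7.19 FPKM in FAC and 16.2, 16.0 and 16.2 FPKM in 8HQ, and the cell-cycle inhibitor CDKN1A averaged 57.2 ± 2.73 FPKM in FAC and 79.7 ± 3.47 FPKM in 8HQ. BAX, CCNG1 and RRM2B were the 3 higher.

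Genes induced by growth signals were lower in FAC. None of 24 immediate early genes was higher, 0 also at an unadjusted limma p under 0.05, and 21 were lower, with a median of -0.60, the most negative of the lists with at least 10 tested members. EGR1, a zinc finger factor induced within minutes of a growth signal, had 1.92, 1.99 and 1.85 FPKM in FAC, 17.8, 18.1 and 18.4 FPKM in 8HQ and 22.3, 22.4 and 20.1 FPKM in DMSO. Its difference between FAC and 8HQ was -2.71 ± 0.05 (log2, SE; adjusted p = 1.09e-14), and FAC had 0.106 times the 8HQ level. IER3 had 45.4, 43.6 and 42.2 FPKM in FAC and 109, 114 and 119 FPKM in 8HQ, and JUNB, an AP-1 subunit, 5.502, 4.46 and 4.72 FPKM in FAC and 14.5, 14.2 and 12.2 FPKM in 8HQ. FOS, at a low level, had 0.705, 0.547 and 1.31 FPKM in FAC and 2.49, 2.61 and 2.54 FPKM in 8HQ. Against DMSO 21 of these genes were lower in FAC and 7 in 8HQ, where MYC was higher.

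Of 17 genes that feed back on ERK, the kinase at the end of the growth factor cascade, none was higher, 0 also at an unadjusted limma p under 0.05, and 15 were lower. The phosphatase DUSP5 had 0.795, 0.934 and 0.978 FPKM in FAC and 4.01, 3.35 and 4.14 FPKM in 8HQ. The Ras activator SOS1 had 17.2, 18.2 and 17.7 FPKM in FAC and 46.9, 46.7 and 44.4 FPKM in 8HQ, and the inhibitor SPRY4 had 4.53, 4.27 and 4.50 FPKM in FAC and 12.6, 12.7 and 12.4 FPKM in 8HQ. CCND1 (-0.04) and PHLDA1 (0.00) were the members not called. Targets of YAP and SRF, which answer to cell tension and actin, gave 1 higher and 17 lower of 23, led by ANKRD1 with 6.90, 6.91 and 6.64 FPKM in FAC and 22.6, 23.2 and 22.9 FPKM in 8HQ. The single higher member was ACTA2 (0.47). TGF-beta receptors and targets gave 2 higher, TGFBR3 and ACVR1B, and 9 lower of 15. The activin antagonist FST had 18.1, 17.04 and 20.6 FPKM in FAC and 68.9, 66.9 and 67.3 FPKM in 8HQ (-1.82 ± 0.05).

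**Figure D5:**
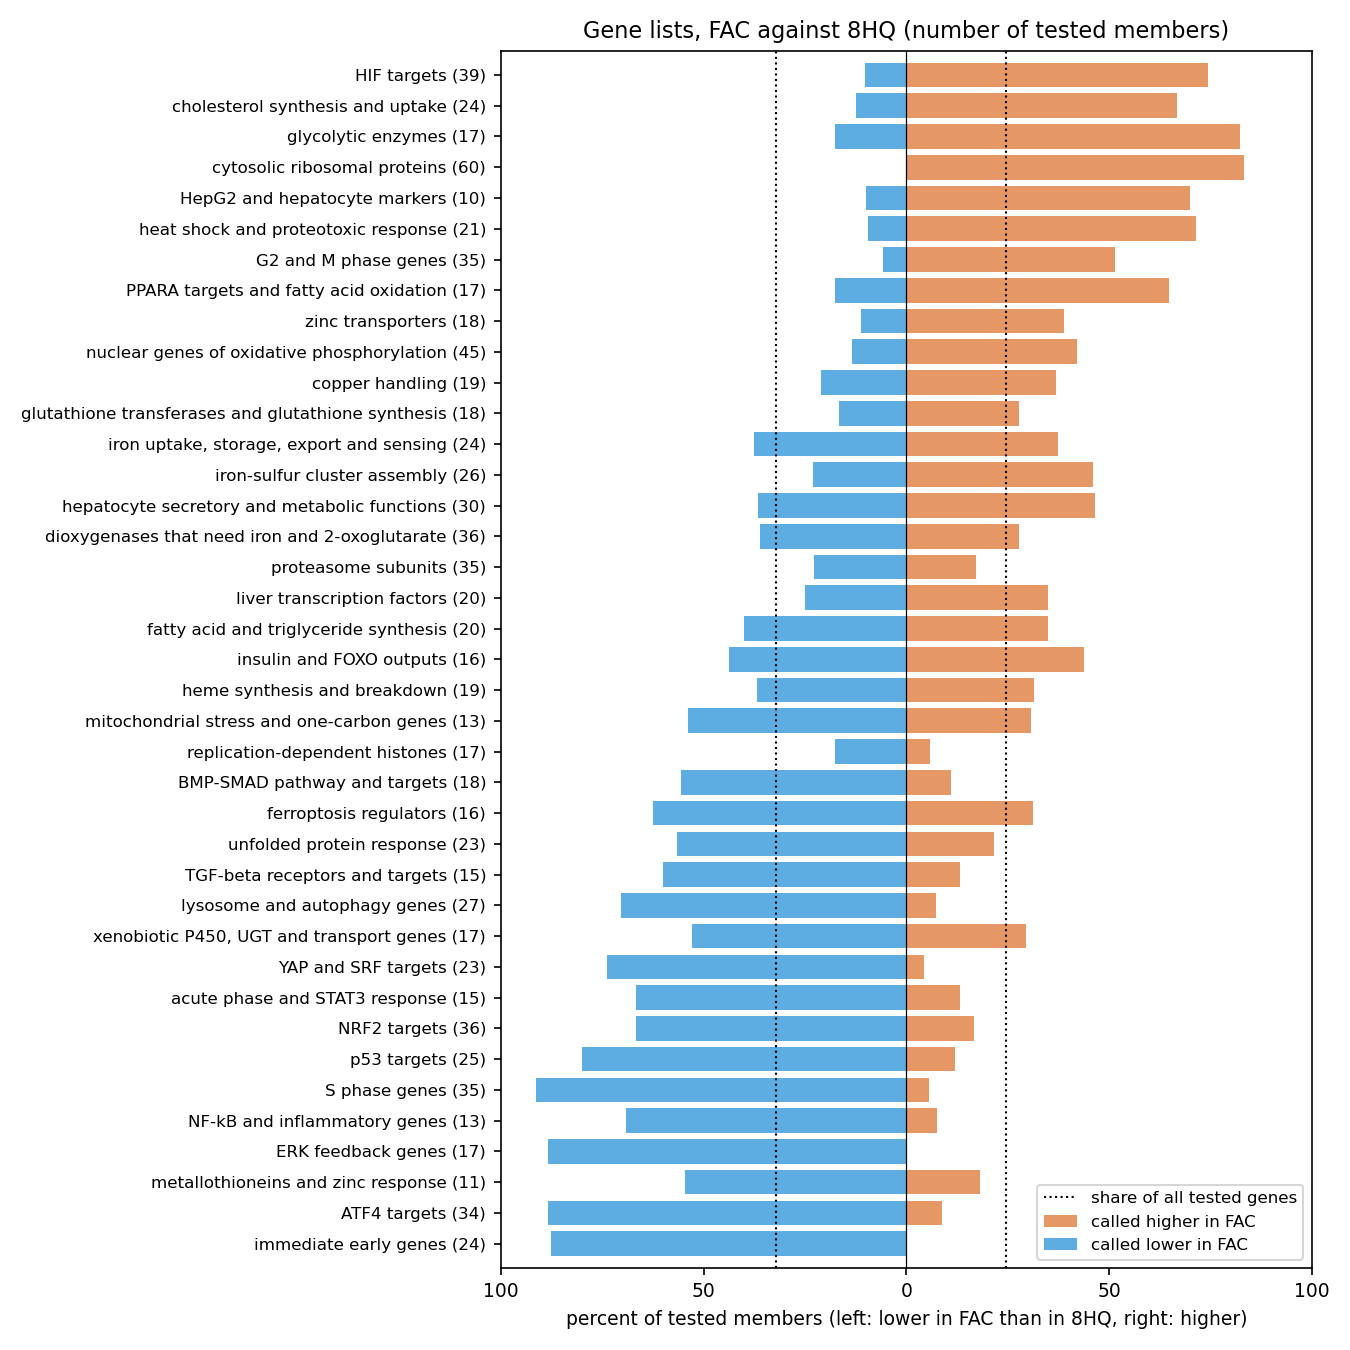
Percent of tested members called lower (left, blue) and higher (right, orange) in FAC than in 8HQ for each gene list with at least 10 tested members, ordered from the highest median difference at the top, with the number of tested members in brackets. Dotted lines give the share of all 10823 tested genes, 32.2% lower and 24.7% higher; HIF targets stand at the top and immediate early genes at the bottom.

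Genes of DNA replication and of mitosis moved in opposite directions. Of 35 S phase genes 32 were lower in FAC and 2, among them GINS1 (0.12; adjusted p = 0.0362, and 0.116 without 8HQ replicate 2), higher, with a median of -0.34. E2F1, the factor that drives entry into S phase, had 26.0, 23.8 and 24.5 FPKM in FAC, 55.7, 57.2 and 57.7 FPKM in 8HQ and 58.2, 61.3 and 58.9 FPKM in DMSO. CDT1, which loads the replicative helicase, had 34.9, 33.4 and 30.9 FPKM in FAC and 53.4, 54.8 and 55.4 FPKM in 8HQ, and the helicase subunit MCM3 had 110.4, 110.4 and 109.7 FPKM in FAC and 155, 149 and 154 FPKM in 8HQ. FAC was again the low group. PCNA, the sliding clamp, had 306, 306 and 298 FPKM in FAC and 391, 395 and 403 FPKM in 8HQ. Against DMSO 31 of the list were lower in FAC and none in 8HQ, where RFC3 had an unadjusted limma p under 0.05. Of 35 G2 and M phase genes 18 were higher in FAC and 2, NEK2 and CDC25B, lower, with a median of 0.15. CCNB1, the mitotic cyclin, had 97.9, 99.9 and 94.7 FPKM in FAC and 64.9, 65.2 and 64.1 FPKM in 8HQ. CDC20, which activates the anaphase ligase, averaged 77.0 ± 4.39 FPKM in FAC and 50.4 ± 3.30 FPKM in 8HQ, and HMMR, of the spindle, 23.7 ± 1.38 FPKM in FAC and 12.3 ± 0.809 FPKM in 8HQ. Of 17 histone genes H2AC20 was higher, at 0.60 (0.40 and an adjusted limma p of 0.125 without 8HQ replicate 3), and 3, H2BC12, H2BC4 and H2BC21, lower; most replication-dependent histone mRNAs lack a poly(A) tail, and the library preparation beyond standard Illumina is not given in the sources used here.

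Promoters of 3 S phase genes are shown because this list and the AHR list had the greatest shares of members called in 1 direction. Capitals mark E2F cores (TTTCCCGC, TTTCGCGC, TTTGCCGC or TTTGGCGC on either strand), a motif added after the values were seen. Matches begin 33 and 20 bases before the start of E2F1 (chr20:33686336-33686635, minus), 174 and 4 before that of MCM3 (chr6:52284693-52284992, minus) and 35 before that of CDT1 (chr16:88803539-88803838, plus). Such cores were found in 60.0% of 30 S phase promoters and in 5.75% of all 8950. The 3 genes are among the 5 of the list with the smallest adjusted p; CHAF1A, which is as well, held no such core in this window.
E2F1: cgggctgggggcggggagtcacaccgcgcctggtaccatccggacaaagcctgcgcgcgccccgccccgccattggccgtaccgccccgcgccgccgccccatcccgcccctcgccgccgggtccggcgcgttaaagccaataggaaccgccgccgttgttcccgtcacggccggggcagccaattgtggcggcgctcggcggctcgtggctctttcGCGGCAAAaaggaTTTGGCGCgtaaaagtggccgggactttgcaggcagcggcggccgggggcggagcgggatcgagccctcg
MCM3: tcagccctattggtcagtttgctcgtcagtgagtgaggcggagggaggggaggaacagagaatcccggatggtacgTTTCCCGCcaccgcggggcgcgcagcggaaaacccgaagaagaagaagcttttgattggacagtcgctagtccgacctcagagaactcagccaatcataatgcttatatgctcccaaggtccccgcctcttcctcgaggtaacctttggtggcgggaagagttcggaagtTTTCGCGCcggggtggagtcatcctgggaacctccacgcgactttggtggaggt
CDT1: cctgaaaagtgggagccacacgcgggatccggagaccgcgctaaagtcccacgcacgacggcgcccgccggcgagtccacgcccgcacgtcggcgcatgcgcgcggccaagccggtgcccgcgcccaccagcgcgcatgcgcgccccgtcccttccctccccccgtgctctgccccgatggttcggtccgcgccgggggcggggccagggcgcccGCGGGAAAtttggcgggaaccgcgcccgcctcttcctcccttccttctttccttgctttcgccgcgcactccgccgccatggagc

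Cholesterol synthesis genes were higher in FAC: 16 of 24 tested rose and 3 fell, with a median of 0.36, while limma called none of them in 8HQ against DMSO in either direction, with 1 higher and 2 lower at an unadjusted p under 0.05. MSMO1, an iron-dependent sterol oxidase, had 48.5, 46.5 and 48.6 FPKM in FAC, 18.6, 18.6 and 16.996 FPKM in 8HQ and 18.9, 16.4 and 18.9 FPKM in DMSO. HMGCS1, an early enzyme of the pathway, had 30.2, 31.0 and 30.9 FPKM in FAC and 16.9, 16.4 and 16.0 FPKM in 8HQ. LSS (-0.26) and TM7SF2 (-0.48), later enzymes of the pathway, were lower. Fatty acid and triglyceride synthesis gave 7 higher and 8 lower of 20. PLIN2, the coat of lipid droplets, had 123, 132 and 133 FPKM in FAC and 66.5, 65.2 and 69.2 FPKM in 8HQ. Of 17 PPARA and fatty acid oxidation genes 11 were higher, such as EHHADH (1.08), and 3 lower, CPT1A, CREB3L3 and ACADVL. The 11 include ANGPTL4, which passed the filter only through FAC libraries, so its direction is no test result. CPT1A, the gate of mitochondrial oxidation, had 5.68, 6.32 and 6.41 FPKM in FAC and 15.1, 15.8 and 14.4 FPKM in 8HQ.

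Liver functions were divided. Of 30 hepatocyte secretory and metabolic genes 14 were higher and 11 lower. The gluconeogenic PCK1 averaged 6.62 ± 0.289 FPKM in FAC and 2.38 ± 0.0174 FPKM in 8HQ, CYP7A1, which starts bile acid synthesis, 2.38 ± 0.372 FPKM in FAC and 0.526 ± 0.238 FPKM in 8HQ, and the fetal protein gene AFP 3002 ± 54.1 FPKM in FAC and 2105 ± 36.5 FPKM in 8HQ. APOE, of lipoproteins, was lower at 551 ± 12.7 FPKM in FAC and 694 ± 24.1 FPKM in 8HQ, as was HPX (-0.64), which scavenges heme. Of 20 liver transcription factors 7 were higher, with ONECUT1 at 0.58 and FOXA2 at 0.41, and 5 lower, namely CEBPB, TBX3, ONECUT2, NR0B2 and NR1I2. The called share of these factors, 60%, was near the 56.9% of all tested genes. The 7 higher ones include NR5A2, which passed the filter only through FAC libraries, so its direction is no test result. HNF4A, a master regulator of hepatocyte genes, was not called (86.7 ± 2.43 FPKM in FAC and 84.7 ± 0.328 FPKM in 8HQ). Of 17 P450, UGT and transport genes 5 were higher (SULT2A1, UGT2B7, CYP8B1, UGT2B10 and UGT2B4) and 9 lower, among them the bile acid hydroxylase CYP27A1 at 84.4 FPKM in FAC and 119.6 FPKM in 8HQ. The 9 include CYP2E1, which passed the filter only through 8HQ and DMSO libraries, so its direction is no test result.

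Inflammatory genes of the liver were mostly lower. Acute phase genes gave 2 higher, FGB and SERPINA1 (which turned lower, at -0.12, under quantile normalization), and 10 lower of 15. SERPINA3, a protease inhibitor of inflammation, had 436, 442 and 449 FPKM in FAC, 1003, 986 and 1051 FPKM in 8HQ and 986, 994 and 997 FPKM in DMSO. Fibrinogen chains split: FGG was lower at -0.36, FGA at -0.22, and FGB higher at 0.24. NF-kB genes gave 1 higher, IL32 (0.64), and 9 lower of 13, with CXCL8 at -1.39 and RELB at -0.88. Of 16 insulin and FOXO outputs 7 were higher and 7 lower. IGFBP1, an insulin-repressed binding protein, averaged 309 ± 27.7 FPKM in FAC, 536 ± 6.25 FPKM in 8HQ and 633 ± 17.2 FPKM in DMSO.

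Among lists of housekeeping machinery the medians ran from -0.21 for lysosome and autophagy genes to 0.19 for cytosolic ribosomal protein genes. Of 60 cytosolic ribosomal protein genes 50 were higher in FAC and none lower, 0 also at an unadjusted limma p under 0.05, with a median of 0.19; quantile normalization, which moves the most abundant genes, left 38 higher and 6 lower. RPL13A had 1702, 1643 and 1658 FPKM in FAC and 1304, 1324 and 1352 FPKM in 8HQ. Ribosomal protein genes have many processed copies, so their levels depend on how the authors' counting treated shared reads. Nuclear genes of oxidative phosphorylation gave 19 higher and 6 lower of 45, but 15 and 11 with equal sums, while equal medians gave 30 higher. Proteasome subunits gave 6 higher and 8 lower of 35, and 14 higher with equal medians, so the direction of this list changes with the scaling. As deposited, their called share of 40% was below the 56.9% of all tested genes. Of 27 lysosome and autophagy genes 2 were higher, among them TFEB, and 19 lower, with the autophagy kinase ULK1 at -0.93 (6.40 FPKM in FAC and 13.1 FPKM in 8HQ) and the ATG8 relative GABARAPL1 at -0.79.

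Among the 12 genes with the greatest positive and the 12 with the greatest negative difference were several outside these groups. The vitamin D hydroxylase CYP24A1 had 1.04, 0.862 and 0.856 FPKM in FAC, 8.86, 8.37 and 8.61 FPKM in 8HQ and 8.02, 7.30 and 7.57 FPKM in DMSO. ACTA1, skeletal muscle actin, had 4.95, 4.42 and 5.24 FPKM in FAC and 18.7, 19.4 and 21.7 FPKM in 8HQ. FAC was the low group for both, at -2.33 ± 0.07 and -1.84 ± 0.06 (log2, SE). On the higher side SLC7A10, a carrier of small neutral amino acids, had 3.61, 3.89 and 4.24 FPKM in FAC and 0.411, 0.365 and 0.316 FPKM in 8HQ. PLG, plasminogen, had 4.75, 4.28 and 5.15 FPKM in FAC and 0.846, 0.883 and 0.928 FPKM in 8HQ, and the creatine carrier SLC6A8 55.9, 56.0 and 54.5 FPKM in FAC and 22.2, 21.2 and 21.8 FPKM in 8HQ. UGT2B4, a bile acid glucuronosyltransferase, averaged 5.53 ± 0.344 FPKM in FAC and 1.33 ± 0.0366 FPKM in 8HQ, TUBB1, a beta tubulin of platelets, 4.50 ± 0.372 FPKM in FAC and 0.762 ± 0.0310 FPKM in 8HQ, the lipocalin LCN15 8.75 ± 0.381 FPKM in FAC and 2.32 ± 0.203 FPKM in 8HQ, and PCOLCE2, which helps trim procollagen, 6.26 ± 0.325 FPKM in FAC and 1.51 ± 0.153 FPKM in 8HQ. FAC was separate from 8HQ and from DMSO in each of these genes.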

How the data were processed

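RNA of HepG2 cells was profiled on Illumina instruments in 12 libraries, 3 per group. The authors deposited 1 table of FPKM per gene and library, with column names that end in FPKM. Bowtie 0.12.2 and the mouse builds mm8 and mm9 are named in the submitters' processing notes; a mouse build cannot be the build of this human table, and no source used here states the build, annotation, counter or use of strand. Only relative depth can be read from FPKM steps, so no counting intervals were computed. Spreadsheet dates in place of 27 gene symbols were turned back through gene IDs.

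FPKM were taken as log2(FPKM + 1), for genes that reached 1 FPKM in 3 or more libraries, and limma 3.58.1 (R 4.3.3) was fitted with 1 mean per group over all 12 libraries and an intensity trend. Contrasts were FAC minus 8HQ and each agent minus DMSO; p-values were adjusted over 10823 genes by Benjamini-Hochberg, two-sided, with a threshold of 0.05. The fit was tested on simulated data. Gene lists are described by counts and medians without a test. The members and lists were chosen with earlier results of these data known. Named genes are a fixed panel, the 12 genes farthest apart in each direction, up to 4 members per list by adjusted p, members whose role is described and the genes of counts of 5 or fewer, except some members of the lists that are not reported here. Alternatives were 4 scalings, 2 filters, another pseudocount, variance model, sample sets, a block for replicate number, a threshold of 1.5-fold and leaving out each library. The replicate numbers of the titles were not taken as pairs. Figures were drawn with matplotlib 3.10.9, tables with pandas 2.3.3 and numpy 2.4.6 (Python 3.11.15). Promoters came from RefSeq (GRCh38.p14) and hairpins from GENCODE 29 transcripts.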

Additional observations from a re-analysis of the deposited data

How the results depend on the processing

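The count of genes that differed between FAC and 8HQ stayed within 1.5 times of 6153, in total and in each direction, under the alternatives listed with the methods, except the test against a fold of 1.5, which called 183 genes, 68 higher and 115 lower. Leaving out 1 library at a time gave 5523 to 6209 genes, 2412 to 2689 of them higher and 3106 to 3521 lower. Same-numbered FAC and 8HQ libraries did not deviate together (correlations -0.05, 0.02 and -0.03), and a fit with the replicate number as a block called 6064 genes, 2636 higher and 3428 lower. Of 294 genes followed one by one, 193 lost the limma call when tested against a fold of 1.5, and 101 were unchanged. Among the 294, SERPINA1 changed sign, to -0.12 under quantile normalization (adjusted p = 3.96e-07 in limma). Without 1 library 18 of them lost the limma call at adjusted p of 0.0504 to 0.238: ACO1, ACVR1B, ATP7B, CD74, CLPX, COX19, CYP8B1, DHODH, DNAJB4, ENO3, GINS1, H2AC20, HSF1, NCOA4, TFEB, TKT, TMPRSS6 and UGT2B7. AKR1C3 was called higher without 8HQ replicate 3 and without some 8HQ_FAC libraries. Another scaling took the call from 16 genes, among them GPX4, CANX, XBP1 and HSPE1, and gave one to 9, among them BMPR1A, IREB2, HSPA5, HNF4A and CCND1. Another filter, pseudocount, variance model or sample set took the call from 12 genes, GSTA2 (adjusted p = 0.0506 with no filter) and 11 of the 18 listed above, and gave one to AKR1C3. The cause was not tested. Differences near 0.12, the median reach of the 95% interval to either side, are at the limit of what 3 libraries a group resolve, and absolute depth is unknown.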

Other observations

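Among genes picked after their values were seen, epithelial keratin 19 (KRT19), a marker of bile duct and progenitor cells, averaged 121 ± 2.09 FPKM in FAC and 71.8 ± 0.689 FPKM in 8HQ, and the adhesion protein EPCAM 112 ± 0.914 FPKM in FAC and 80.3 ± 1.94 FPKM in 8HQ, while SOX9 of the same marker list was not called (62.7 ± 2.62 FPKM in FAC and 61.3 ± 1.01 FPKM in 8HQ). EPO, the gene of erythropoietin and a known HIF2 target in liver, had 4.21, 4.72 and 4.58 FPKM in FAC and 2.47, 3.16 and 2.56 FPKM in 8HQ. TXNIP, which binds thioredoxin and answers to glucose, had 25.5, 25.3 and 24.97 FPKM in FAC and 15.5, 15.1 and 14.8 FPKM in 8HQ, and PNPLA3, a lipid droplet protein, had 10.4, 10.6 and 10.0 FPKM in FAC and 4.73, 4.82 and 4.21 FPKM in 8HQ. FAC libraries lay above 8HQ libraries for KRT19, EPCAM, EPO, TXNIP and PNPLA3. In the cells given both agents CYP1A1 had 2.97, 3.08 and 3.31 FPKM and HMOX1 216, 217 and 248 FPKM, so CYP1A1 was below and HMOX1 above every library of either agent by itself.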
